A study of Homo sapiens with 24 samples.

Results

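The LY6/PSCA family genes described here encode small cell surface proteins and were followed in CD18/HPAF cells, an established human pancreatic cancer (PC) line, with and without the histone deacetylase inhibitor ISOX. The 8 genes (LY6D, LY6E, LY6K, LY6G6C, PSCA, LYPD3, LYPD6B and CD59) were selected on family membership by a rule written with the values of these groups already known, so their values are a description. By gene name they matched 15 of the 30276 rows of the deposited table. These comprise 1 row for each gene on a main chromosome, plus 6 further rows of LY6G6C and 1 of LY6E on alternate contigs, all of which were listed at 0. The 12 ISOX samples had 48 h of the inhibitor at 1 µM and the 12 untreated samples had none, and the labels do not say that the untreated cells received a vehicle. Both groups are the same line, so nothing here speaks for other PC cells. The table gives the authors' pooled value per gene and group in FPKM, a count of sequenced fragments scaled by transcript length and by the mapped fragments of the library. No value per sample was at hand, so no gene has a spread and no difference below was tested. Differences are given as the log2 ratio of the ISOX value over the untreated value.

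Proteins of this family share a compact domain held together by disulfide bonds, known from secreted snake toxins, and most are tied to the outer leaflet of the plasma membrane by a glycosylphosphatidylinositol (GPI) lipid anchor. They act by binding other proteins at the cell surface, among them complement proteins, proteases, matrix proteins and nicotinic acetylcholine receptors. PSCA, first described as prostate stem cell antigen, is also known as a surface antigen of pancreatic carcinoma, and LY6D is known from stratified epithelia.

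As deposited, ISOX values were higher than untreated values across most of the table, and this frames every ratio below. The filter kept the 12154 rows with at least 1 FPKM in a group and a value above 0 in both, of which 9339 had a log2 ratio above 0 and 2815 below. Their median log2 ratio was 0.21, or 1.16-fold. The deposited values summed to 873757 FPKM with ISOX and 667281 FPKM untreated. Each ratio is therefore also given relative to that median. A ratio of at least 1.5-fold was reached upward by 13.0% of these rows (1580) and downward by 2.56% (311). Of the rows past this fold 83.6% were higher with ISOX, and 53.0% once the median had been subtracted. Relative to the median, 733 of the 12154 rows were past 1.5-fold upward and 649 downward. The 9 listed carcinoma epithelial markers all passed the filter, with KRT19 at 3325 FPKM in ISOX-treated and 2970 FPKM in untreated cells. KRT8 was at 1731 FPKM with ISOX and 1579 FPKM untreated, KRT7 at 1451 FPKM with ISOX and 844 FPKM untreated, and CLDN4 at 233 FPKM with ISOX and 163 FPKM untreated. Of 15 markers of fibroblasts, leukocytes, endothelium, acinar and endocrine cells, 5 were listed at 0 in both groups (CD3E, CDH5, GCG, CPA1 and PRSS1) and 11 did not pass the filter. Their sum was 68.0 FPKM with ISOX and 36.8 FPKM untreated, most of it from LUM (36.8 FPKM with ISOX and 12.9 FPKM untreated) and CD68 (26.2 FPKM with ISOX and 20.1 FPKM untreated), with COL1A1 at 2.75 FPKM with ISOX and 2.48 FPKM untreated. The part of these markers in the results below was not tested. In bulk RNA, fewer cells that express a gene and less of its RNA per cell cannot be told apart.

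Of the 8 genes, 5 passed the filter of 1 FPKM (LY6D, PSCA, LY6E, CD59 and LYPD3), 2 of these were at least 1.5-fold higher with ISOX, against the 13.0% of all rows, and 1 was at least 1.5-fold lower, against 2.56%. The rule used this same contrast, so nothing is read from these counts. LY6K, LY6G6C and LYPD6B did not pass. LY6D, PSCA and LY6E made up 95.7% of the summed family FPKM in ISOX-treated cells and 97.9% in untreated cells. From high to low the order of the levels was LY6D, PSCA, LY6E, CD59, LYPD3, LY6G6C, LY6K and LYPD6B with ISOX. Untreated cells gave the same order down to LY6G6C, while LY6K and LYPD6B were both listed at 0. Whether neighbours in this order differ beyond their spread could not be judged from pooled values.

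**Figure D1:**
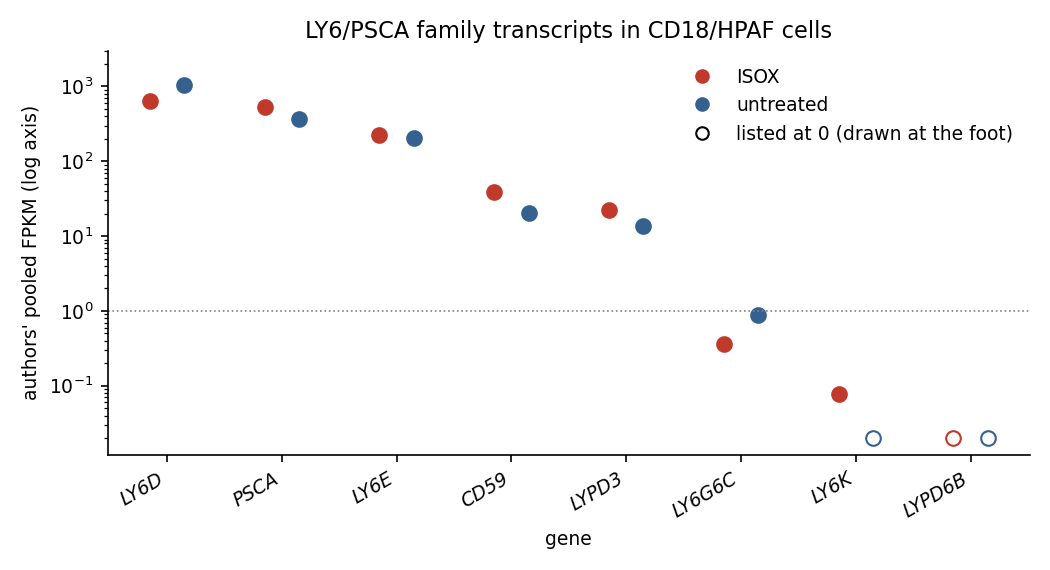
Authors' pooled FPKM of the 8 family genes on a log axis, with ISOX (red) to the left of untreated (blue) for each gene; each point is 1 pooled value without error bars, open points at the foot mark genes listed at 0, and the dotted line is the 1 FPKM filter. LY6D, PSCA and LY6E lie highest in both groups, from 207 to 1044 FPKM, and of the 5 genes past the filter LY6D alone has the lower point with ISOX as deposited, joined by LY6E once the median of all rows is subtracted.

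LY6D was the most abundant of the 8 transcripts in both groups. Of the 5 past the filter it alone had the lower value in ISOX-treated cells as deposited. The authors' pooled value was 634 FPKM with ISOX and 1044 FPKM without, a log2 ratio of −0.72, or 1.65-fold lower with ISOX. The direction held under each scaling tried, with −0.93 relative to the median of all rows and −1.11 after both groups had been set to the same FPKM sum. LY6D ranked 172nd of 12154 rows by level in ISOX-treated and 84th in untreated cells. Its ratio was the 208th lowest of all these rows. On hg38 its row lies on chromosome 8 from 142784882 to 142786592. GENCODE release 29 gives it 3 exons and a coding length of 384 bases on the minus strand, with an antisense gene whose exons overlap its own on the plus strand. The strand setting of the counting is not given in the sources used here, so reads of both cannot be told apart.

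PSCA stood next in level and lay on the other side. It was at 530 FPKM in ISOX-treated and 370 FPKM in untreated cells, with a log2 ratio of 0.52, which is 1.43-fold and short of the 1.5-fold mark. Relative to the median of all rows its log2 ratio was 0.31, and after equal sums 0.13. PSCA ranked 196th by level with ISOX and 206th without. Its row spans 142670308 to 142682727 on chromosome 8, and its gene model has 3 exons with 342 coding bases. LY6E, an interferon-inducible family gene whose product affects the entry of several viruses into cells, had the smallest log2 ratio of the 5 in size. LY6E was at 227 FPKM with ISOX and 207 FPKM untreated (log2 ratio 0.14), and the sign turned to −0.07 relative to the median and to −0.25 after equal sums. No direction is therefore given for LY6E. Its row spans 143018485 to 143022410 on chromosome 8, and a divergent noncoding gene overlaps it in exons on the opposite strand.

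Ratios between genes of the same group do not depend on how the groups were scaled, and they showed a shift away from LY6D. LY6D was at 1.20 times the FPKM of PSCA in ISOX-treated cells and at 2.82 times in untreated cells, a difference of −1.24 on the log2 scale. Against LY6E the factor was 2.79 with ISOX and 5.06 without. PSCA was at 2.33 times LY6E with ISOX and 1.79 times without. Against the less abundant CD59, LY6D was at 16.2 times its level with ISOX and 51.7 times without. Of the 10 pairs among the 5 genes, the 4 with LY6D differed most between the groups in log2 terms, from −0.86 to −1.67. The remaining 6 pairs ran from −0.81 to 0.38, the largest in size being LY6E over CD59. Each pair value is the difference of both genes' log2 ratios, so this order follows from those ratios and is no separate result.

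The summed FPKM of the 8 genes was 1453 with ISOX and 1656 untreated, which was 0.166% of all deposited FPKM with ISOX and 0.248% untreated. LY6D supplied 43.6% of the family sum in ISOX-treated cells and 63.1% in untreated cells. PSCA supplied 36.5% with ISOX and 22.4% untreated, and LY6E 15.6% with ISOX and 12.5% untreated. CD59 and LYPD3 were small parts of both sums: CD59 supplied 2.69% with ISOX and 1.22% untreated, and LYPD3 1.56% with ISOX and 0.823% untreated. The pooled LY6D value was 411 FPKM lower with ISOX, while PSCA was higher by 160 FPKM and LY6E by 20.7 FPKM.

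**Figure D2:**
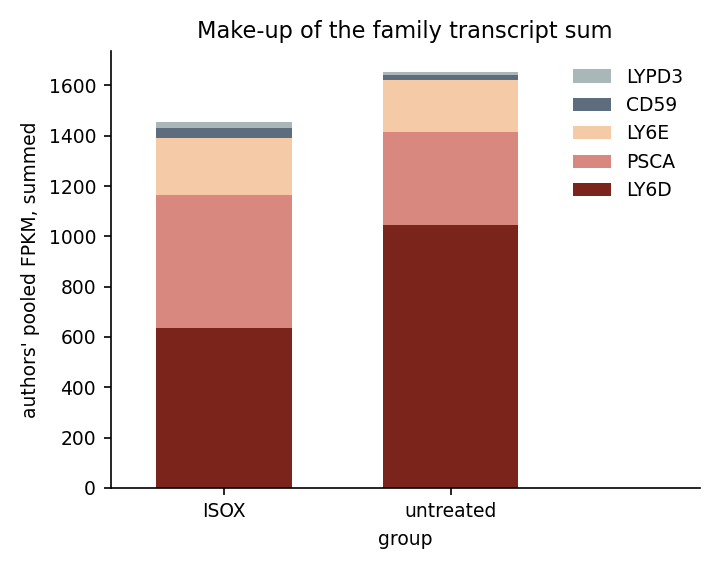
Stacked bars of the authors' pooled FPKM of the 5 family genes past the filter, for ISOX (left) and untreated (right); no error can be given. The LY6D segment is 634 FPKM with ISOX and 1044 FPKM untreated, and the PSCA segment 530 FPKM with ISOX and 370 FPKM untreated.

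PSCA, LY6K, LY6D and LY6E lie in a single stretch of chromosome 8, where 14 rows of the table follow each other from PSCA to LY6E. Neighbouring rows did not share a direction across the stretch. PSCA was higher with ISOX at its near end, THEM6 was at 14.6 FPKM with ISOX and 16.0 FPKM untreated (log2 ratio −0.13), and 3 consecutive family rows, LYPD2, LYNX1 and LY6D, all had lower values with ISOX. LYNX1, whose product modulates nicotinic receptors in neurons, was at 0.493 FPKM in ISOX-treated and 2.13 FPKM in untreated cells, a log2 ratio of −2.11. LYPD2 missed the filter narrowly, at 0.123 FPKM with ISOX and 0.987 FPKM untreated. These 2 rows hold little RNA next to LY6D, and their ratios shrink when a constant is added: with 1 FPKM on both sides LYNX1 was at −1.07 and LYPD2 at −0.82, against −0.72 for LY6D. SLURP1, which encodes a secreted family protein of the epidermis, was at 0.270 FPKM with ISOX and 0.119 FPKM untreated. On the far side of LY6D, GML was listed at 0 with ISOX and at 0.0526 FPKM untreated, and CYP11B1 and CYP11B2, adrenal steroid enzymes, were listed at 0 in both groups. Just before PSCA, JRK had a log2 ratio of −0.05 at 7.76 FPKM with ISOX. Before LY6E, CDC42P3 was listed at 0 with ISOX and at 0.0249 FPKM untreated. LOC100133669, over the same span as CDC42P3, was at 0.380 FPKM with ISOX and 0.161 FPKM untreated. After LY6E, MIR1302-7 was listed at 0 in both groups. C8orf31, over the same span as MIR1302-7, was at 0.800 FPKM with ISOX and 0.577 FPKM untreated.

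**Figure D3:**
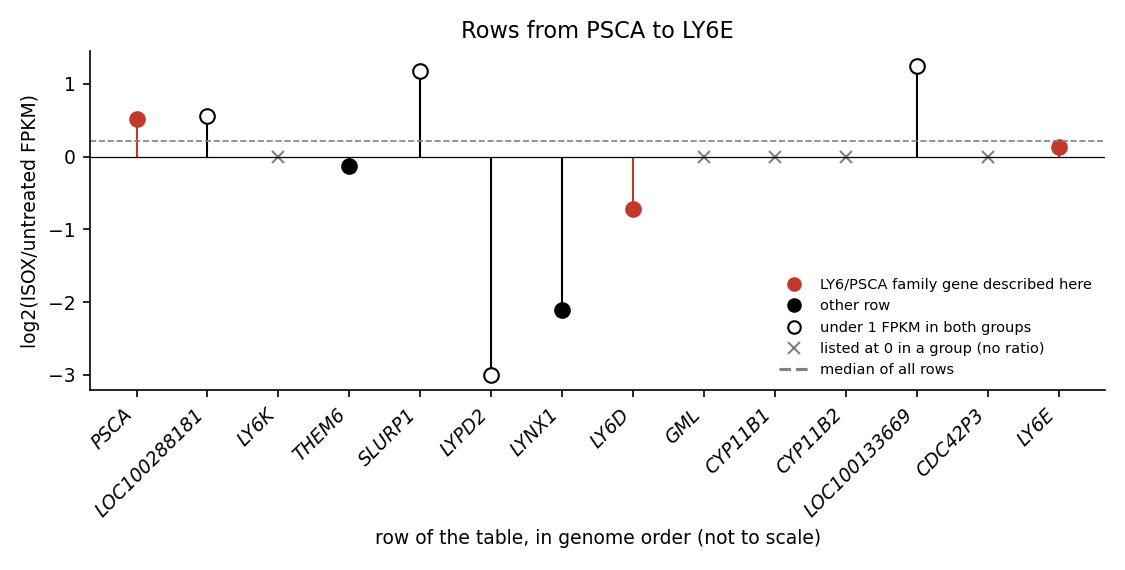
Log2 ratio of ISOX over untreated FPKM for the 14 rows from PSCA to LY6E in genome order (rows evenly spaced, not to scale); red marks the family genes described here, open circles rows under 1 FPKM in both groups, crosses rows listed at 0 in a group, and the dashed line the median of all rows at 0.21. LYPD2, LYNX1 and LY6D lie next to each other below 0, at −3.00, −2.11 and −0.72, while PSCA lies at 0.52 and LY6E at 0.14.

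CD59 and LYPD3 were expressed at a lower level than LY6D, PSCA and LY6E and had the highest log2 ratios of the 5 genes. CD59, the inhibitor of the membrane attack complex of complement, was at 39.0 FPKM in ISOX-treated and 20.2 FPKM in untreated cells, 1.93-fold higher with ISOX (log2 ratio 0.95). Its log2 ratio was 0.74 relative to the median of all rows and 0.56 after equal sums, where it no longer reached 1.5-fold. By size of the ratio CD59 ranked 475th from the top. LYPD3, which encodes a GPI-anchored relative of the urokinase receptor found in stratified epithelia and carcinomas, was at 22.6 FPKM with ISOX and 13.6 FPKM untreated. This was 1.66-fold higher with ISOX (log2 ratio 0.73), but 0.52 relative to the median and 0.34 after equal sums, both under the 1.5-fold mark. LYPD3 ranked 932nd from the top. Both stayed on the side of ISOX in each of these scalings. The CD59 row spans 33703010 to 33736479 on chromosome 11, and a protein-coding gene overlaps its exons on the same strand. The LYPD3 row spans 43460794 to 43465679 on chromosome 19, where its gene model has 5 exons and 1038 coding bases, the longest coding length of the 8.

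**Figure D4:**
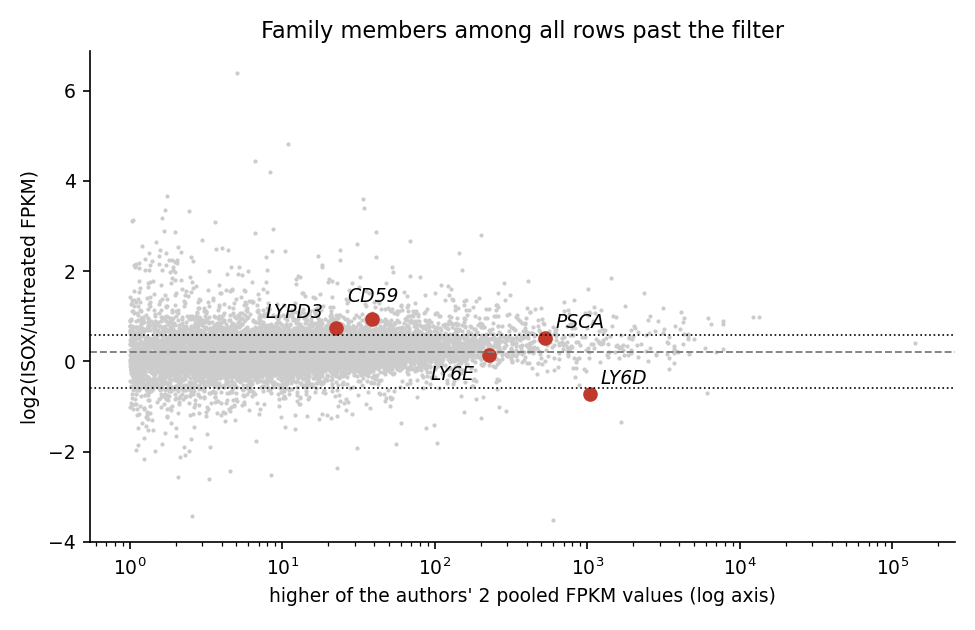
Log2 ratio of ISOX over untreated FPKM against the higher of both FPKM values (log axis) for the 12154 rows past the filter (grey), with the 5 family genes in red; dotted lines mark 1.5-fold in each direction and the dashed line the median of 0.21. CD59 (0.95) and LYPD3 (0.73) lie above the upper line, LY6D (−0.72) below the lower line, and PSCA (0.52) and LY6E (0.14) between them.

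The RefSeq promoter table for GRCh38.p14 held 8 start sites for CD59, LYPD3, LY6G6C and LYPD6B. Sequence before the first start is printed for CD59 and LYPD3, the 2 genes that were at least 1.5-fold higher with ISOX, so that their composition can be compared. Capitals mark the motifs searched on both strands: the GC box GGGCGG, the TATA box TATAAA, the E-box CACGTG, the AP-1 site TGANTCA and the CCAAT box CCAAT. Both genes lie on the minus strand, and each sequence is read 5′ to 3′ toward the gene.
CD59, chr11:33736492-33736729: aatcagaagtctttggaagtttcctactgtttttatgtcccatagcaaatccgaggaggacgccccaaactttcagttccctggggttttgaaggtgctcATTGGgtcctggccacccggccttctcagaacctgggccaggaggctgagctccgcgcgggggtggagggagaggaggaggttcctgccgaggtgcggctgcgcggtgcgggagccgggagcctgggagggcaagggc
LYPD3, chr19:43465680-43465858: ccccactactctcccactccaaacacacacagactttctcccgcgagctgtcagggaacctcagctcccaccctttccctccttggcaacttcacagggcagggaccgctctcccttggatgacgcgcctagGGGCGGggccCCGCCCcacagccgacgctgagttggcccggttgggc
The 238 bases of CD59 were 61.8% G or C and held a reverse CCAAT box, while the 179 bases of LYPD3 were 65.9% G or C and held 2 GC boxes on opposite strands. Counted to the RefSeq start, the CCAAT box of CD59 begins 150 bases before it and the GC boxes of LYPD3 begin 118 and 108 bases before it. The full 250-base windows before these starts held none of the other motifs. The table gives CD59 further starts. A start whose window overlaps the printed one had 2 GC boxes as well as the same CCAAT box, a start farther into the gene had a reverse CCAAT box at 236 bases, and the last had 2 AP-1 sites, which begin 117 and 23 bases before it. Over all 35116 windows of 250 bases the median was 58% G or C. Of these windows, 42.6% held a GC box, 32.0% a CCAAT box, 10.7% a TATA box, 6.57% an AP-1 site and 6.34% an E-box. These matches describe letters only, and no binding was measured.

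The 3 genes under 1 FPKM contributed almost no RNA. LY6G6C, a family gene of the major histocompatibility region on chromosome 6 (31718648 to 31721734), was at 0.357 FPKM with ISOX and 0.887 FPKM untreated. Its log2 ratio of −1.31 was −0.48 once 1 FPKM had been added to both groups. LY6K, a gene otherwise expressed mainly in testis, was at 0.0778 FPKM with ISOX and listed at 0 untreated, so no fold is given. Its span in the table is shared with LOC100288181, at 0.269 FPKM with ISOX and 0.183 FPKM untreated, and an antisense gene overlaps its exons. LYPD6B, a family member that modulates nicotinic receptors, was listed at 0 in both groups, and of the rows next to it LYPD6 was at 0.0442 FPKM with ISOX and 0.116 FPKM untreated and KIF5C was listed at 0 untreated. Beside LY6G6C, LY6G6D was listed at 0 in both groups and C6orf25 was at 0.300 FPKM with ISOX and 0.376 FPKM untreated.

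Among the rest of the LY6/uPAR family, most genes past the filter had the lower value with ISOX. Of 30 further family genes listed, 27 were in the table and 9 passed the filter (LY6L, LY6S and SLURP2 were not analysed here), among them BAMBI, a decoy receptor for TGF-beta ligands with a related domain. Of the 9, 8 had a log2 ratio below 0, and the same 8 lay below the median of all rows. The median of the 9 was −0.20, against 0.21 over all rows. In number, 1 was past 1.5-fold upward (11.1%, against 13.0% of all rows) and 2 downward (22.2%, against 2.56%). Both lower genes were under 5 FPKM in both groups. With at least 5 FPKM in a group, 3 of the 9 passed, with 1 higher and 0 lower, against 1092 higher and 115 lower of 8893 rows. The higher gene was PLAUR, the urokinase receptor, at 60.1 FPKM with ISOX and 37.8 FPKM untreated (log2 ratio 0.67). At 0.46 relative to the median PLAUR was under the 1.5-fold mark. In that setting the split of the 9 was 0 higher and 4 lower genes, against 733 and 649 of the 12154 rows. As deposited the 2 lower genes were LYNX1 and LY6G5C, with LY6G5C at 0.715 FPKM with ISOX and 1.85 FPKM untreated (log2 ratio −1.37). LY6G5B, beside LY6G5C in the major histocompatibility region, was at 5.29 FPKM with ISOX and 7.10 FPKM untreated (−0.43). BAMBI was at 13.4 FPKM with ISOX and 18.5 FPKM untreated (−0.47). Relative to the median LY6G5B was at −0.64 and BAMBI at −0.68, both then past 1.5-fold downward. The others, CD177 (−0.20), LYPD1 (−0.08), LYPD5 (−0.07) and SPACA4 (−0.06), had small log2 ratios at levels between 0.972 FPKM with ISOX and 3.16 FPKM untreated. After LYPD3 came PHLDB3, at 4.65 FPKM with ISOX and 2.78 FPKM untreated, and before it TEX101, at 0.0662 FPKM with ISOX and 0.0864 FPKM untreated. CD59 was followed by FBXO3, at 17.8 FPKM with ISOX and 12.8 FPKM untreated, and preceded by C11orf91, at 0.606 FPKM with ISOX and listed at 0 untreated.

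A list of partner and ligand genes around the family was in the same table. PLAU, the urokinase that binds the PLAUR protein, was at 155 FPKM with ISOX and 65.3 FPKM untreated, a log2 ratio of 1.25. AGR2 and AGR3, secretory pathway proteins reported to bind LYPD3, were on the other side: AGR3 was at 0.370 FPKM with ISOX and 1.47 FPKM untreated, and AGR2 at 132 FPKM with ISOX and 264 FPKM untreated. DAG1, the dystroglycan gene, for which no binding to a family protein is claimed here, was at 31.1 FPKM with ISOX and 33.3 FPKM untreated. LRP6, a WNT co-receptor, was at 4.83 FPKM with ISOX and 4.19 FPKM untreated. Of the 5 genes of this list past the filter, 1 was past 1.5-fold upward and 2 downward, against 13.0% and 2.56% of all rows in those directions.

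Beside CD59, the complement regulator CD55 also had a higher value with ISOX. CD55, which speeds the decay of complement convertases and is likewise GPI-anchored, was at 48.1 FPKM in ISOX-treated and 14.4 FPKM in untreated cells, 3.33-fold higher with ISOX (log2 ratio 1.74, or 1.52 relative to the median). CD46, a transmembrane cofactor for complement cleavage, was at 86.7 FPKM with ISOX and 72.9 FPKM untreated, a log2 ratio of 0.25 that lay 0.04 above the median and turned to −0.14 after equal sums. CR1 was at 0.00506 FPKM with ISOX and 0.00378 FPKM untreated, and CSMD1 and SUSD4 were listed at 0 in both groups.

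Genes whose products carry the same anchor without the family domain, apart from LYPD5 and GPIHBP1, were on both sides. Of 84 listed, 35 passed the filter, 11 were at least 1.5-fold higher with ISOX (31.4%, against 13.0% of all rows) and 4 at least 1.5-fold lower (11.4%, against 2.56%). Relative to the median of all rows the split was 4 and 4, against 733 higher and 649 lower of the 12154 rows. Their median log2 ratio was 0.35, against 0.52 for the 5 family genes past the filter and 0.21 for all rows, and CD55 and LYPD5 counted here belong to other lists as well. CEACAM6, an adhesion molecule, was at 411 FPKM with ISOX and 119 FPKM untreated. CEACAM5 had the largest ratio of the list, at 18.4 FPKM with ISOX and 4.17 FPKM untreated (log2 ratio 2.14). MSLN, which encodes mesothelin, was at 176 FPKM with ISOX and 171 FPKM untreated, CD24, a mucin-like adhesion molecule, at 72.0 FPKM with ISOX and 157 FPKM untreated (log2 ratio −1.12) and BST2, the interferon-induced tetherin, at 130 FPKM with ISOX and 145 FPKM untreated. LY6D exceeded each of these 5 in FPKM, in ISOX-treated and in untreated cells. The machinery that makes and attaches the anchor had values closer to the median of all rows. All 29 of its listed genes passed, with 4 at least 1.5-fold higher (13.8%, against 13.0% of all rows), none at least 1.5-fold lower (against 2.56%), and a median log2 ratio of 0.27. Relative to the median of all rows, 2 of the 29 were past 1.5-fold upward and 0 downward, against 733 and 649 of the 12154 rows. PIGK, the protease-like subunit of the transamidase that attaches the anchor, was at 17.4 FPKM with ISOX and 9.40 FPKM untreated (log2 ratio 0.89), and PIGP, a subunit of the enzyme that starts anchor synthesis, at 36.5 FPKM with ISOX and 20.0 FPKM untreated (0.87). GPAA1, another transamidase subunit, had a log2 ratio of −0.01 at 49.7 FPKM with ISOX. DPM1 was at 68.3 FPKM with ISOX and 43.9 FPKM untreated, PIGY at 70.1 FPKM with ISOX and 53.0 FPKM untreated and DPM3 at 135 FPKM with ISOX and 127 FPKM untreated.

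**Figure D5:**
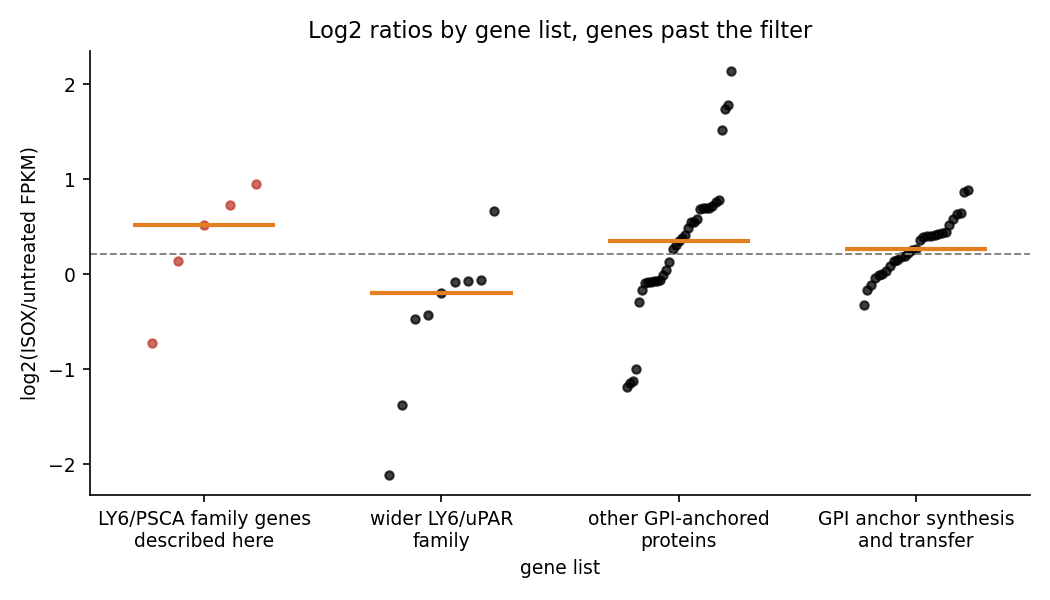
Log2 ratio of ISOX over untreated FPKM for genes past the filter in 4 lists, each point a gene, with the list's median as an orange line and the median of all 12154 rows (0.21) as a dashed line. The 5 family genes described here run from −0.72 to 0.95, the 9 further family genes from −2.11 to 0.67, the 35 other GPI-anchored genes from −1.19 to 2.14 and the 29 anchor synthesis genes from −0.33 to 0.89.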

How the data were processed

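RNA libraries were made by the authors with the Illumina TruSeq kit from CD18/HPAF cells treated with 1 µM ISOX for 48 h and from untreated cells, with 12 sample titles in each group. Whether the samples were separate cultures is not stated. The submitters' processing notes name Bowtie, TopHat, Cufflinks and Cuffdiff with build hg38, and neither their versions nor the strand setting of the counting is given there. The deposited FPKM values are the authors' pooled value per gene and group, so neither spread nor depth is known and no interval, floor or test was computed. The table also holds the authors' fold changes, test statistics, p-values and q-values, which were not used.

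Log2 ratios of ISOX over untreated FPKM were computed without a pseudocount for rows with at least 1 FPKM in a group and a value above 0 in both. This left out 62 rows that reached 1 FPKM in 1 group and were listed at 0 in the other. Where a gene had several rows, the highest row on a main chromosome was used, and 599 rows join several gene names. The calling step was tested on simulated data. Members and the 8 gene lists were chosen with earlier results of these data known. By rule, the text names the 8 genes, each further family gene past the filter, the highest genes and the largest ratios of each other list, and the rows next to each member; other neighbours were added after their values were seen. Alternatives were the pseudocount, the filter, the scaling, the fold and rows with 1 gene name. Starts are counted from 1. Python 3.11.15, numpy 2.4.6, pandas 2.3.3 and matplotlib 3.10.9 were used.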

Additional observations from a re-analysis of the deposited data

How the results depend on the processing

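The values are pooled by group, so leaving out a sample could not be done. No paired analysis was possible because the table holds no value per sample. Of the 8 genes, 5 passed the filter and 3 of these 5 were past 1.5-fold. This count was 1 after equal FPKM sums (LY6D) and 0 at a 2-fold threshold. Relative to the median it was 2 (CD59 and LY6D), and without a filter it was 4 of the 6 genes that then had a ratio. In the other settings (0.1 or 1 FPKM added, at least 5 FPKM in a group, rows with 1 gene name) it was 3. Over all rows, 1891 of 12154 were past 1.5-fold, 1382 relative to the median and 508 at 2-fold. The count was 4029 of 16456 rows without a filter and 1207 of 8893 with at least 5 FPKM in a group. Equal sums gave 445 higher and 1219 lower rows in place of 1580 and 311. Among the further family genes the count was 3 of 9, and 5 of 9 after equal sums. It was 7 of 16 without a filter and 1 of 3 with at least 5 FPKM (higher with ISOX). For the other GPI-anchored genes it was 15 of 35, and of the same 35 it was 8 relative to the median, 9 after equal sums and 7 at 2-fold. Without a filter it was 23 of 50, and with at least 5 FPKM 8 of 20. A filter changes these counts through the number of rows it keeps, and equal sums by taking 0.39 off every log2 ratio. Without values per sample the precision of a ratio could not be judged here.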

Other observations

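Nicotinic acetylcholine receptor subunits, on which several LY6/uPAR proteins act, were scarce in these cells. Of 16 subunit genes, 2 passed the filter of 1 FPKM and 7 were listed at 0 in both groups. Neither of the 2 was past 1.5-fold as deposited, against 13.0% of all rows upward and 2.56% downward. Relative to the median 1 of the 2, CHRNB1 at −0.59, was past 1.5-fold downward, against 649 of the 12154 rows. CHRNA5 was the highest, at 8.17 FPKM with ISOX and 7.57 FPKM untreated, a log2 ratio of 0.11. CHRNB1 was at 1.66 FPKM with ISOX and 2.16 FPKM untreated (log2 ratio −0.38), CHRNE at 0.596 FPKM with ISOX and 0.947 FPKM untreated and CHRNA10 at 0.376 FPKM with ISOX and 0.299 FPKM untreated. LYNX1 and LYPD6B, both known to modulate these receptors, were scarce as well, LYNX1 at 0.493 FPKM with ISOX and 2.13 FPKM untreated and LYPD6B listed at 0 in both groups. LPL, the lipase that the family protein GPIHBP1 binds in capillaries, was listed at 0 in both groups, as was GPIHBP1.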
